A study of Mus musculus with 16 samples.

Results

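The genes of dead-cell uptake described here were 10 of the 55604 genes listed in the deposited count tables. They were taken by name, as receptors that bind phosphatidylserine, the kinases that sense it through bridging proteins, those bridging proteins, and LRP1. Timd4 encodes Tim-4, the protein on which the macrophages were sorted, and the other 9 genes were Havcr2, Cd300lf, Axl, Mertk, Tyro3, Gas6, Pros1, Mfge8 and Lrp1. All 10 had at least 10 counts in at least 4 libraries and were tested.

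Macrophages were collected from the peritoneal cavity of female C57BL/6 mice some weeks after intraperitoneal inoculation of ID8, a line of mouse ovarian surface epithelial cancer that spreads along the peritoneum. Both subsets came from tumor-bearing mice of this strain, with no tumor-free group and no further allele or drug. Tim-4+ tumor-associated macrophages (Tim-4+ TAMs) were captured with a PE-labeled Tim-4 antibody and beads against PE, and Tim-4- TAMs were then enriched from the remaining cells with beads against F4/80, so the subsets were not isolated by the same step. There were 4 pairs of libraries (793, 784, 783 and 779), 1 library per subset and pair, and the labels do not say whether a pair was 1 mouse or pooled mice. The p-values below set the difference between subsets against its spread over these 4 pairs, except where a fit leaves the pairs out. Each gene's spread was drawn toward that of the other genes, so the p-values do not rest on the 4 pairs alone.

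A dying cell exposes phosphatidylserine on its surface, and macrophages recognize it in several ways. The TIM proteins and CD300f bind the lipid directly. The kinases Axl, MerTK and Tyro3 bind it through the bridging proteins Gas6 and protein S, whereas MFG-E8 links it to the integrins alpha-v beta-3 and alpha-v beta-5, and LRP1 takes up cells coated with calreticulin and other ligands. Tim-4 is known as a tethering receptor of resident peritoneal macrophages that works together with other receptors for engulfment.

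Libraries held 53527928 to 57768202 counts on genes in Tim-4+ TAMs, against 55618306 to 69594245 in the Tim-4- subset, so that 3 counts corresponded to 0.0382 to 0.0630 CPM (counts scaled to library size and TMM factor). This floor covers counting error only. The macrophage marker genes summed to 45580 to 57950 CPM in Tim-4+ TAMs, against 21760 to 35050 CPM in the Tim-4- subset, and 5 of the 8 were higher in Tim-4+ TAMs. All 6 markers of large peritoneal macrophages were higher in Tim-4+ TAMs, with sums of 4001 to 10160 CPM against 708 to 1471 CPM. Markers of monocyte-derived macrophages were lower in Tim-4+ TAMs for 5 of 6 genes, although the sums overlapped (936 to 6366 CPM against 4104 to 13100 CPM). All 10 tumor and mesothelial markers were lower in Tim-4+ TAMs, with sums of 113 to 403 CPM against 455 to 2196 CPM. Sums of lymphocyte, dendritic and granulocyte markers stayed between 0.378 and 29.4 CPM, and of these genes only Ncr1, a natural killer cell marker, was at or under 3 counts in every library. T and NK cell sums were 0.378 to 2.23 CPM in Tim-4+ TAMs, against 3.545 to 9.81 CPM in the Tim-4- subset. The 1 such gene tested, Cd4, was lower. Of 7 tested B cell markers 2 were lower and 0 higher, and of 6 dendritic markers 1 was higher and 1 lower. No tested granulocyte or mast cell marker passed.

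Of the 10 uptake genes, 3 were higher in Tim-4+ TAMs (Timd4, Pros1 and Mertk), 2 were lower (Havcr2 and Gas6), and 5 did not pass the test. Across all 16861 genes tested, 8.97% were called higher and 8.43% lower by edgeR's quasi-likelihood test, at a Benjamini-Hochberg adjusted p under 0.05 with the pair as a block. Their median log2 fold change was 0.29, beside a median of -0.0012 over all genes tested. Only Timd4 and Pros1 showed no overlap between the subsets, a pattern seen in 12.8% of all genes. As Timd4 is the gene of the sorting protein, its count among these calls checks the sort. Cd300lf and Lrp1 were also on the higher side in every pair, and Tyro3 on the lower side in every pair, without passing the test. With total counts per library instead of TMM factors, the median of all genes became -0.36, and Mfge8 and Lrp1 turned to the lower side. The 10 genes then gave 2 higher and 4 lower calls, beside 4.68% and 29.1% of all genes in that fit. Without pair 784, edgeR's quasi-likelihood test called none of the 10 genes, beside 0.534% of all genes higher and 0.393% lower. At an unadjusted p under 0.05 that fit had 3 of the 10 higher and 3 lower, and the share of all genes at that threshold was not counted. Leaving out pair 783 gave 4 higher and 2 lower calls among the 10, beside 9.59% and 11.8% of all genes.

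**Figure D1:**
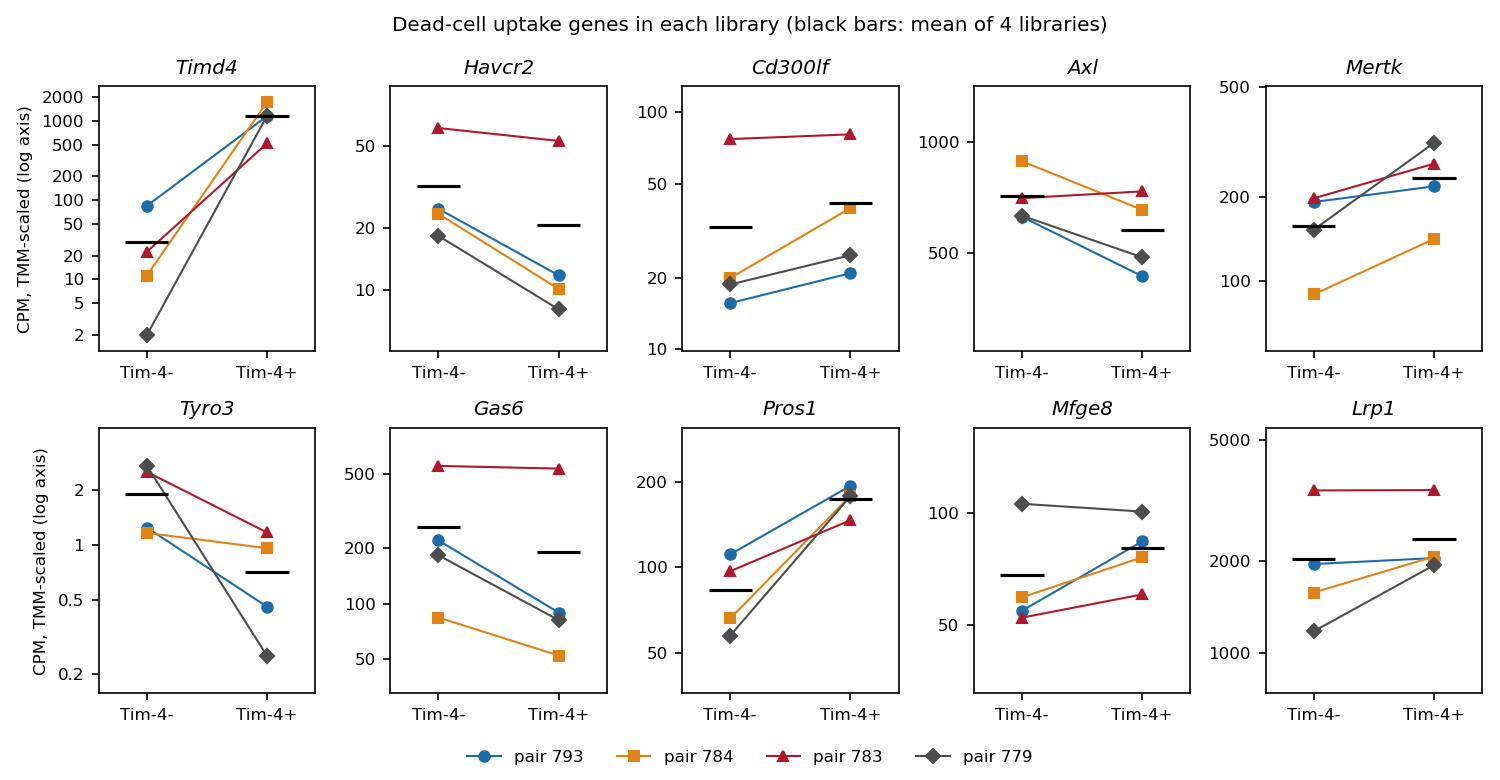
Level of the 10 uptake genes in each of the 8 libraries, as TMM-scaled CPM on a log axis with its own range in each panel. Lines join the 2 libraries of a pair, and black bars mark the mean of 4 libraries. The lines of Timd4 and Pros1 rise between groups that do not overlap, and pair 783 lies apart at the top for Havcr2, Cd300lf, Gas6 and Lrp1.

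Timd4 separated the subsets in every pair, in the direction of the sort. Its level in Tim-4+ TAMs was 1160 CPM in pair 793, 1743 CPM in pair 784, 524 CPM in pair 783 and 1166 CPM in pair 779. In Tim-4- TAMs it was 84.9, 11.1, 22.3 and 1.96 CPM in the same order, from 5669 counts in pair 793 down to 128 counts in pair 779. Thus Tim-4+ libraries differed by 3.33-fold from lowest to highest and Tim-4- libraries by 43.2-fold, and transcript was counted in every Tim-4- library. The log2 ratio within a pair was 3.77, 7.29, 4.56 and 9.19, respectively. The fitted log2 fold change was 6.09 (SE 1.08), or 67.9-fold, with an adjusted p of 0.0167 by edgeR's quasi-likelihood test. This adjusted p rose to 0.0843 without pair 784 and to 0.148 without a filter on low counts. In bulk samples, a few Tim-4+ cells left among Tim-4- TAMs and a low Timd4 level per cell cannot be told apart.

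Havcr2 encodes Tim-3, an inhibitory receptor of T cells and myeloid cells that also binds phosphatidylserine, and it moved opposite to Timd4. Tim-4+ TAMs held 11.8, 10.1, 53.1 and 8.07 CPM of Havcr2 in pairs 793, 784, 783 and 779. The Tim-4- TAMs of the same pairs held 24.9, 23.5, 61.3 and 18.4 CPM. The Tim-4+ library was the lower of the pair each time, but the subsets overlapped because both libraries of pair 783 stood above the other 6. The log2 ratios were -1.07, -1.21, -0.21 and -1.18, and the fit gave -0.92 (SE 0.19, adjusted p = 0.0185 by edgeR's quasi-likelihood test). Leaving out pair 793, 784 or 779 ended the call, with adjusted p-values of 0.0746, 0.102 and 0.0806 in the same test.

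Per kilobase of exon, Timd4 exceeded Havcr2 by 12.4 to 215 times in Tim-4+ TAMs. In Tim-4- TAMs it exceeded Havcr2 in pair 793 alone, by 4.28 times, whereas Havcr2 was 1.69, 2.2 and 7.46 times Timd4 in pairs 784, 783 and 779. Placed among all genes tested by this per-length level, Timd4 stood above 99.5% of genes in Tim-4+ TAMs, against 81.6% in the Tim-4- subset. Havcr2 stood above 69.5% and 78.6%, respectively.

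Both genes lie in the TIM cluster of mouse chromosome 11 (GRCm38), on the plus strand. Havcr2 spans 46454935 to 46481255 and Timd4 spans 46810800 to 46844332, with a gap of 330 kb between them. Within that gap lie the TIM genes Timd2, at 46668960 to 46707061, and Havcr1 (Tim-1), at 46735080 to 46779578. Havcr1 had 0 or 1 count and Timd2 0 to 4 counts in any library, so neither was tested. Of the 4 TIM genes named here, Timd4 and Havcr2 were therefore those with RNA that could be compared.

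The 250 bases before the RefSeq start of Timd4, of Havcr2 and of Pros1, the bridging gene that followed Timd4 most closely, are shown because these 3 genes carried the 3 smallest adjusted p-values among the 10. They are from RefSeq on GRCm38.p6, 5′ to 3′ on the plus strand, at chr11:46810549-46810798, chr11:46454681-46454930 and chr16:62854057-62854306. Capitals mark matches on either strand to any of the following 4 motifs. They were AGATAA for GATA factors, the letters TGCTGA for factors of the MAF family, the letters GAGGAA for the factor PU.1, and the letters TATAAA for the TATA box.
Timd4: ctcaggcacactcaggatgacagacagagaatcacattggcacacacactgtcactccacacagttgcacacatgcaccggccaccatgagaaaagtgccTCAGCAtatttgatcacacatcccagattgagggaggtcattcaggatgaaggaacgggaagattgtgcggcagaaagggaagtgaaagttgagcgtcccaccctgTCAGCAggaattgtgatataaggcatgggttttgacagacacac
Havcr2: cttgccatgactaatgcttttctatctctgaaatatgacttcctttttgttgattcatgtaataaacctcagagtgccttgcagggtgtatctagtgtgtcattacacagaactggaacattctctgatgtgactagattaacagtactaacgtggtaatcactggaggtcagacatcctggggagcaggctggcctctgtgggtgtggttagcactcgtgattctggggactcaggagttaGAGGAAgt
Pros1: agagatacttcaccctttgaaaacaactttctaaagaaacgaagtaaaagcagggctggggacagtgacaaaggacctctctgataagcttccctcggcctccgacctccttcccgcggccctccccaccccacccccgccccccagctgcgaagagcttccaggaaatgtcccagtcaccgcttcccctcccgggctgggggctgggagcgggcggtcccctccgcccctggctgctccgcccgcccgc
Timd4 held 2 matches to the MAF letters, 150 and 44 bases before the start, and Havcr2 held 1 match to the PU.1 letters, 8 bases before it. Among 32851 promoter windows of the same length, 16.1% held the MAF letters, 23.3% the PU.1 letters, 9.99% the GATA letters and 12.4% the TATA letters. The Pros1 window held none of these letters, and it differed in base content, with 15 CpG dinucleotides against 4 for Timd4 and 2 for Havcr2 (median of all windows 6). A match describes letters in the window and not a bound site.

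Cd300lf encodes CD300f, an immunoglobulin-like receptor that binds phosphatidylserine and, in macrophages, adjusts engulfment. Its level was 20.9, 39.4, 80.7 and 24.9 CPM in Tim-4+ TAMs of pairs 793, 784, 783 and 779. Tim-4- TAMs had 15.6, 19.95, 77.1 and 18.7 CPM. Every Tim-4+ library exceeded its partner, with log2 ratios of 0.42, 0.98, 0.07 and 0.41. The groups overlapped, and the log2 fold change of 0.47 (SE 0.15) did not pass edgeR's quasi-likelihood test (adjusted p = 0.0716). It passed without pair 783 (adjusted p = 0.0304), without a filter on low counts (0.0406) and with DESeq2 (0.0480), but in no other alternative. With total counts per library the log2 fold change was 0.11 (adjusted p = 0.572 by edgeR's quasi-likelihood test). Without pair 793, 784 or 779 the adjusted p was 0.16, 0.21 and 0.17 in the same test. Both libraries of pair 783 were above the other 6, as for Havcr2.

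Of the 3 kinases, Mertk was higher in Tim-4+ TAMs, and Axl and Tyro3 lay on the lower side without passing the test. Mertk encodes MerTK, which clears apoptotic cells in many resident macrophages. Tim-4+ TAMs had 219, 142, 264 and 314 CPM of Mertk in pairs 793, 784, 783 and 779. Tim-4- TAMs had 193, 89.8, 199 and 153 CPM. The Tim-4+ library was the higher in each pair, by log2 ratios of 0.19, 0.66, 0.41 and 1.03, while the ranges of the subsets overlapped. The fitted log2 fold change was 0.57 (SE 0.15, adjusted p = 0.0389 by edgeR's quasi-likelihood test), equal to 1.49-fold. Mertk passed in neither the fit scaled by total counts (0.22, adjusted p = 0.181) nor the fits without pair 793, 784 or 779, in which the adjusted p was 0.0502, 0.157 and 0.119.

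Axl, the kinase that pairs with Gas6, is induced by inflammatory signals in macrophages. Its level was 432, 654, 734 and 486 CPM in Tim-4+ TAMs of pairs 793, 784, 783 and 779. In Tim-4- TAMs it was 626, 886, 704 and 630 CPM. It was lower in Tim-4+ TAMs in 3 pairs and slightly higher in pair 783, where the log2 ratio was 0.06. The log2 fold change of -0.32 (SE 0.15) did not pass edgeR's quasi-likelihood test (adjusted p = 0.167). Among the alternatives it passed only with total counts per library (-0.68, adjusted p = 0.0159).

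Tyro3, the remaining kinase of the family, had the fewest counts of the 10 genes over all libraries together. Tim-4+ TAMs held 22, 48, 64 and 12 counts and Tim-4- TAMs 83, 85, 196 and 176 counts in pairs 793, 784, 783 and 779. Levels were at most 1.17 CPM in Tim-4+ TAMs, against 2.70 CPM in the Tim-4- subset. The Tim-4+ library was lower each time, and the size of the log2 ratio ran from -0.27 in pair 784 to -3.27 in pair 779. The log2 fold change was -1.48 (SE 0.52, adjusted p = 0.0898 by edgeR's quasi-likelihood test). Tyro3 passed with DESeq2 (adjusted p = 0.0227) and with total counts per library (-1.82, adjusted p = 0.0389), but in no other alternative.

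Because lengths differ, the 3 kinases were also set against each other as CPM per kilobase of merged exon length. Axl made up 67.6% ± 9.79 (SD, n = 4) of their summed per-length level in Tim-4+ TAMs, against 79.0% ± 7.15 in the Tim-4- subset. Mertk made up 32.4% ± 9.83 and 20.8% ± 7.11, and Tyro3 0.0662% ± 0.0336 and 0.175% ± 0.0825. Axl was therefore the most abundant kinase in all 8 libraries. The per-length ratio of Axl to Mertk was 1.70, 3.97, 2.39 and 1.34 in Tim-4+ TAMs, against 2.80, 8.501, 3.05 and 3.55 in the Tim-4- subset of pairs 793, 784, 783 and 779. It was lower in the Tim-4+ library of every pair, while the ranges overlapped. This ratio does not depend on how libraries are scaled.

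**Figure D2:**
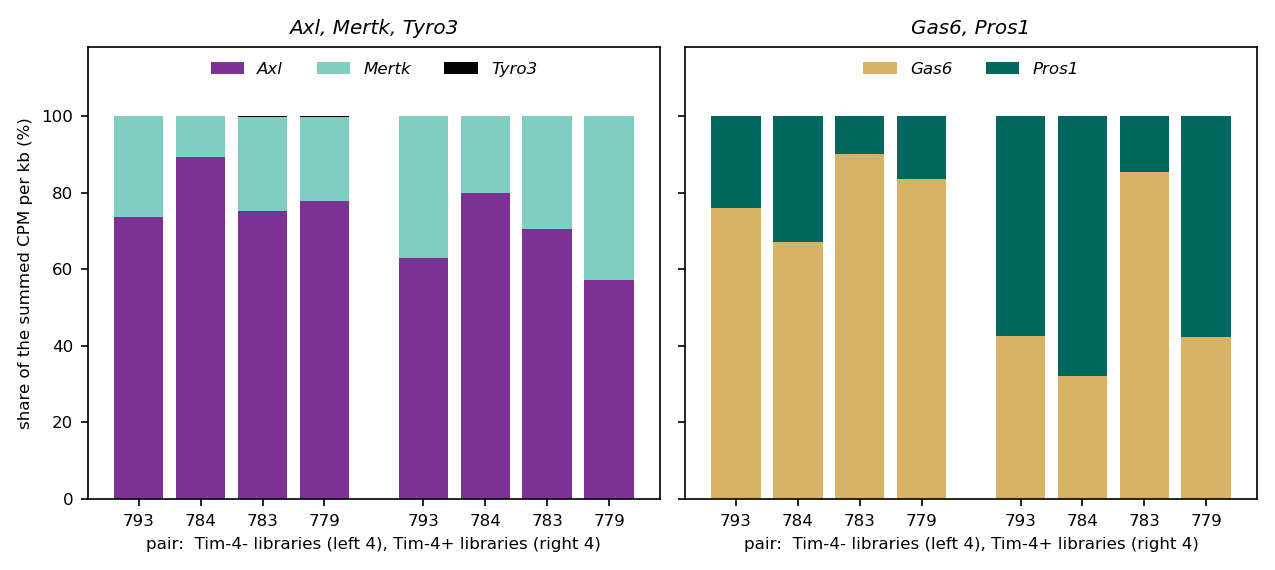
Share of each gene in the summed CPM per kilobase of exon, for Axl, Mertk and Tyro3 (left) and for Gas6 and Pros1 (right), with 1 bar per library. In every pair the Mertk part and the Pros1 part are larger in the Tim-4+ library, and Gas6 still makes up 85.4% of the ligand sum in pair 783 of the Tim-4+ subset.

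The bridging proteins of these kinases moved in opposite directions. Pros1 encodes protein S, an anticoagulant that bridges phosphatidylserine to MerTK and Tyro3. Its level in Tim-4+ TAMs was 194, 179, 147 and 178 CPM in pairs 793, 784, 783 and 779. In Tim-4- TAMs it was 111, 66.0, 96.9 and 57.4 CPM. Every Tim-4+ library lay above every Tim-4- library, and the Tim-4+ libraries differed by only 1.32-fold among themselves. The log2 ratios were 0.80, 1.44, 0.60 and 1.63, and the fit gave 1.12 (SE 0.19), or 2.17-fold, with an adjusted p of 0.0120 by edgeR's quasi-likelihood test. The call was lost without pair 784 (adjusted p = 0.0770).

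Gas6 encodes the bridging protein for all 3 kinases and the known ligand of Axl. Tim-4+ TAMs had 89.5, 52.5, 533 and 81.4 CPM of Gas6 in pairs 793, 784, 783 and 779. Tim-4- TAMs had 219, 84.1, 552 and 182 CPM. Pair 783 was far above the others in both subsets, and its libraries hardly differed. Elsewhere the Tim-4+ library was the lower, and the log2 ratios were -1.29, -0.68, -0.05 and -1.16. The fit gave -0.80 (SE 0.21, adjusted p = 0.0412 by edgeR's quasi-likelihood test). Without pair 793, 784 or 779 the adjusted p was 0.137, 0.139 and 0.158. The tumor and mesothelial markers were also lower in Tim-4+ TAMs, for 10 of 10 genes. Their sums were 403 CPM or less in Tim-4+ TAMs, against 455 CPM or more in the Tim-4- subset. In pairs 793, 784, 783 and 779 the Tim-4- sums were 455, 1397, 906 and 2196 CPM, highest in pair 779, whereas Gas6 in that subset was highest in pair 783. The Tim-4+ sums were 113, 204, 403 and 242 CPM in the same order of pairs. In this subset both the sum and Gas6 were highest in pair 783. The part of these markers in the differences of Gas6, Axl, Tyro3 and Havcr2 was not tested. Gas6 shares 34 exon bases with Tmem255b on the opposite strand, a gene with 56 counts in all libraries together.

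Per length, Gas6 made up 50.6% ± 23.7 (SD, n = 4) of the summed Gas6 and Pros1 level in Tim-4+ TAMs, against 79.2% ± 9.90 in the Tim-4- subset. The per-length ratio of Pros1 to Gas6 was 1.35, 2.12, 0.172 and 1.37 in Tim-4+ TAMs, against 0.317, 0.489, 0.110 and 0.197 in the Tim-4- subset of pairs 793, 784, 783 and 779. Pros1 was thus the more abundant of the pair of ligands in 3 Tim-4+ libraries and in no Tim-4- library. In each pair the ratio was higher in the Tim-4+ library.

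Mfge8 encodes MFG-E8, a secreted bridge from phosphatidylserine to integrins, and Lrp1 encodes a large endocytic receptor. Mfge8 was 83.9, 76.0, 60.4 and 100.9 CPM in Tim-4+ TAMs, against 54.6, 59.3, 52.3 and 106 CPM in the Tim-4- subset of pairs 793, 784, 783 and 779. The Tim-4+ library was higher in 3 pairs and lower in pair 779, whose libraries both exceeded the other 6. Lrp1 was 2045, 2067, 3422 and 1937 CPM in Tim-4+ TAMs, against 1955, 1576, 3414 and 1175 CPM in the Tim-4- subset. It reached the highest CPM of the 10 genes, and both libraries of pair 783 stood above the others. Neither gene passed edgeR's quasi-likelihood test, with log2 fold changes of 0.28 (SE 0.13, adjusted p = 0.172) for Mfge8 and 0.29 (SE 0.18, adjusted p = 0.290) for Lrp1. With total counts per library both turned to the lower side, at -0.079 and -0.063.

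**Figure D3:**
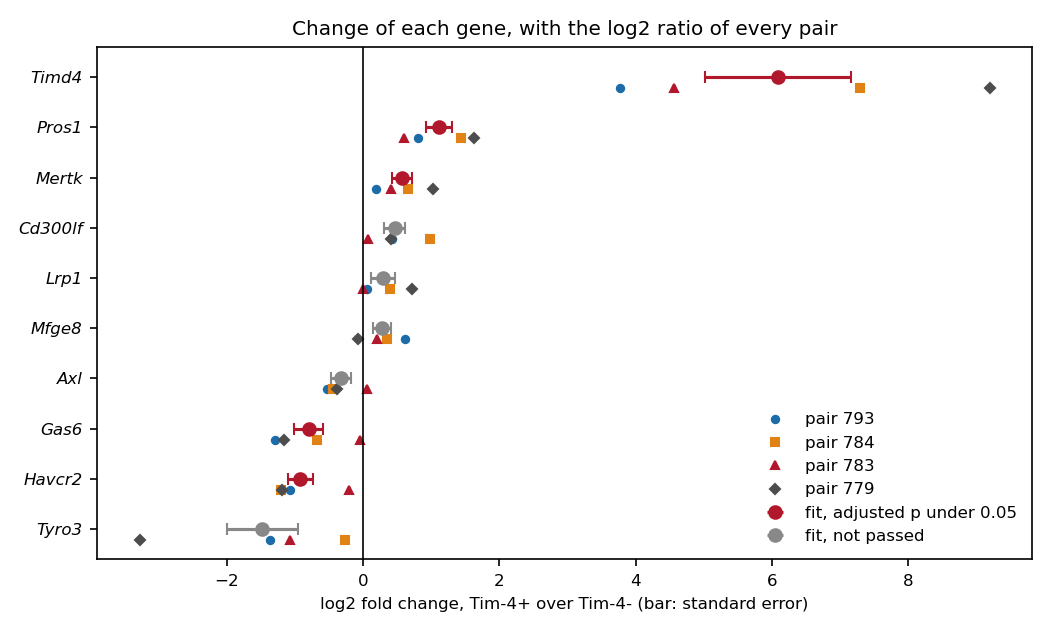
Log2 fold change of each uptake gene in Tim-4+ over Tim-4- TAMs, with its standard error (large points, red where the adjusted p was under 0.05) and the log2 ratio of each pair (small symbols). Timd4 lies furthest to the right at 6.09, and the small symbols of pair 783 lie near 0 for Havcr2, Cd300lf, Axl, Gas6 and Lrp1.

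Pairs differed in the size of the change. Over the 9 genes other than Timd4, the median absolute log2 ratio was 0.62 in pair 793, 0.66 in pair 784, 0.21 in pair 783 and 1.03 in pair 779. Over all genes tested it was 0.33, 0.47, 0.31 and 0.53, so pair 783 had the smallest and pair 779 the largest value in both. Both libraries of pair 783 were above all others for 4 of the 10 genes, at 3.55 times the mean of the other 6 libraries for Havcr2, 3.39 times for Cd300lf, 4.595 times for Gas6 and 1.91 times for Lrp1. Across all genes tested, 7.54% showed this pattern in pair 783. In pair 784 both libraries were the lowest for Mertk, at 0.518 times the mean of the others, a pattern of 8.21% of all genes in that pair. In pair 779 both were the highest for Mfge8, at 1.61 times the mean of the others, as for 4.66% of all genes.

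Across the 8 libraries, Pros1 was the uptake gene most like Timd4 (Pearson r = 0.984 on log2 CPM). Among 8767 tested genes averaging 10 CPM or more, the 5 most like Timd4 were Gbe1 (r = 0.993), Marco (0.987), Kcnn3 (0.986), Pros1 and Itgam (0.983). Gbe1 encodes glycogen branching enzyme, Marco a scavenger receptor, Kcnn3 a potassium channel and Itgam the CD11b chain of complement receptor 3. For the other uptake genes above that level r ran from -0.53 (Axl) to 0.54 (Mertk). These values are descriptions over 8 libraries that share the sort and the 4 pairs. Within Tim-4- TAMs, Timd4 and Pros1 ranked the libraries alike, in the order 793, 783, 784 and 779. Within Tim-4+ TAMs they did not, as Timd4 was highest in pair 784 and Pros1 in pair 793, although both were lowest in pair 783.

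**Figure D4:**
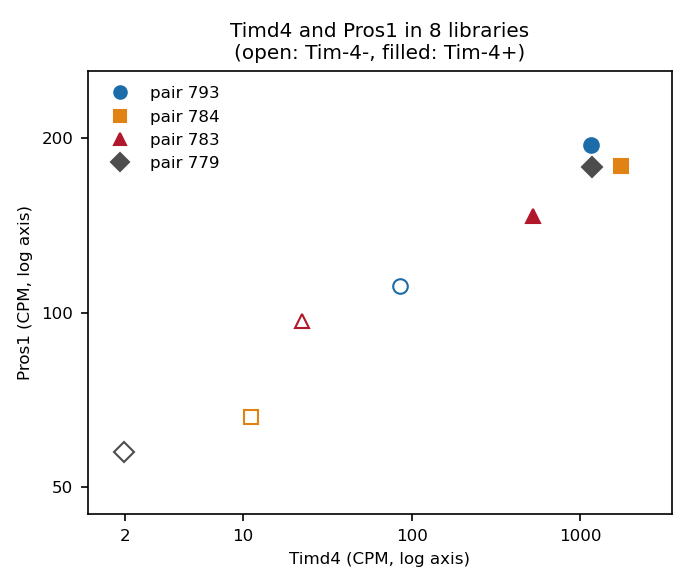
Timd4 against Pros1 in the 8 libraries, both as CPM on log axes, with open symbols for Tim-4- TAMs and filled symbols for Tim-4+ TAMs. Pros1 runs from 57.4 CPM in the library with the least Timd4 (1.96 CPM) to 194 CPM, and the Tim-4+ and Tim-4- libraries do not overlap on either axis.

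Other genes of dead-cell uptake were taken from 12 lists holding 131 genes, of which 117 were tested. Of these, 35 (29.9%) were higher and 10 (8.55%) lower in Tim-4+ TAMs, beside 8.97% and 8.43% of all genes. The median log2 fold change of the 117 was 0.30. The 8.97% and 8.43% of all genes also stand beside the counts of each list below. Scaling by total counts gave 24 higher and 37 lower, beside 4.68% and 29.1% of all genes in that fit. Without pair 784, 1 was higher and 1 lower (0.534% and 0.393% of all genes), and without pair 779, 15 and 4 (2.75% and 2.05%). The lists include Itgam and Cd14, which are also macrophage markers, and the part of the markers' differences in these counts was not tested.

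Among the other receptors for dead cells, 7 of 17 tested were higher and 1 lower. Itgam and Itgb2, the chains of complement receptor 3, had log2 fold changes of 1.24 (SE 0.18, adjusted p = 0.00855) and 1.15 (SE 0.20, adjusted p = 0.0123) by edgeR's quasi-likelihood test. Cd300ld, another gene of the CD300 family, was at 261 ± 42.3 CPM in Tim-4+ TAMs, against 122 ± 35.4 CPM in the Tim-4- subset. Cd36, a scavenger receptor for oxidized lipid and dead cells, was at 385 ± 139 CPM against 234 ± 80.2 CPM, and passed. Stab1, a phosphatidylserine receptor of tissue macrophages, was lower, at 972 ± 668 CPM against 1881 ± 819 CPM, with a log2 fold change of -1.08 (SE 0.17).

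The integrin chains that recognize MFG-E8 did not pass the test. Itgav had a log2 fold change of -0.58 (SE 0.20, adjusted p = 0.0893), Itgb3 of 0.25 (SE 0.26, adjusted p = 0.554) and Itgb5 of -0.60 (SE 0.19, adjusted p = 0.0630) by edgeR's quasi-likelihood test. Trem2, a lipid receptor of many macrophages, had only 2 to 15 counts in any library and was not tested.

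Of the other bridging molecules and opsonins, 8 of 12 tested were higher and 1 lower. C4b, a complement component that coats targets, was at 5966 ± 1587 CPM against 1524 ± 555 CPM, a log2 fold change of 2.01 (SE 0.30). Thbs1, which encodes the bridging protein thrombospondin 1, had a log2 fold change of 1.61 (SE 0.29), Cfp, the complement regulator properdin, 1.49 (SE 0.24), and C1qa, a chain of the C1q that binds dying cells, 0.84 (SE 0.19). Anxa5, which binds and covers phosphatidylserine, was lower, at 186 ± 43.3 CPM against 287 ± 40.3 CPM (log2 fold change -0.65, SE 0.14).

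Downstream of the receptors, 2 of 17 engulfment signaling genes were higher and 2 lower (11.8% each way). This was near the 8.97% and 8.43% of all genes. Rac2 and Elmo1, a small GTPase and a part of the module that activates Rac, rose by log2 fold changes of 0.89 (SE 0.15) and 0.51 (SE 0.13). Src, a tyrosine kinase, was at 6.66 ± 2.25 CPM against 23.4 ± 12.5 CPM (log2 fold change -1.69, SE 0.39). For phagosome maturation and digestion, 6 of 16 tested were higher and none lower by edgeR's quasi-likelihood test, nor was any lower at an unadjusted p under 0.05 or with DESeq2. Scaling by total counts, which gave 37 lower calls over the 117 genes, was not split by list. The 6 higher genes included Cybb, the catalytic chain of the phagocyte NADPH oxidase (log2 fold change 1.11, SE 0.22), the protease gene Ctsd (0.9998, SE 0.21) and Lamp2, a lysosomal membrane protein (0.67, SE 0.17). For lipid handling after uptake, 1 of 11 was higher and 1 lower (9.09% each way), again near the shares of all genes. The lower one was Soat1, which esterifies cholesterol (-0.58, SE 0.16).

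**Figure D5:**
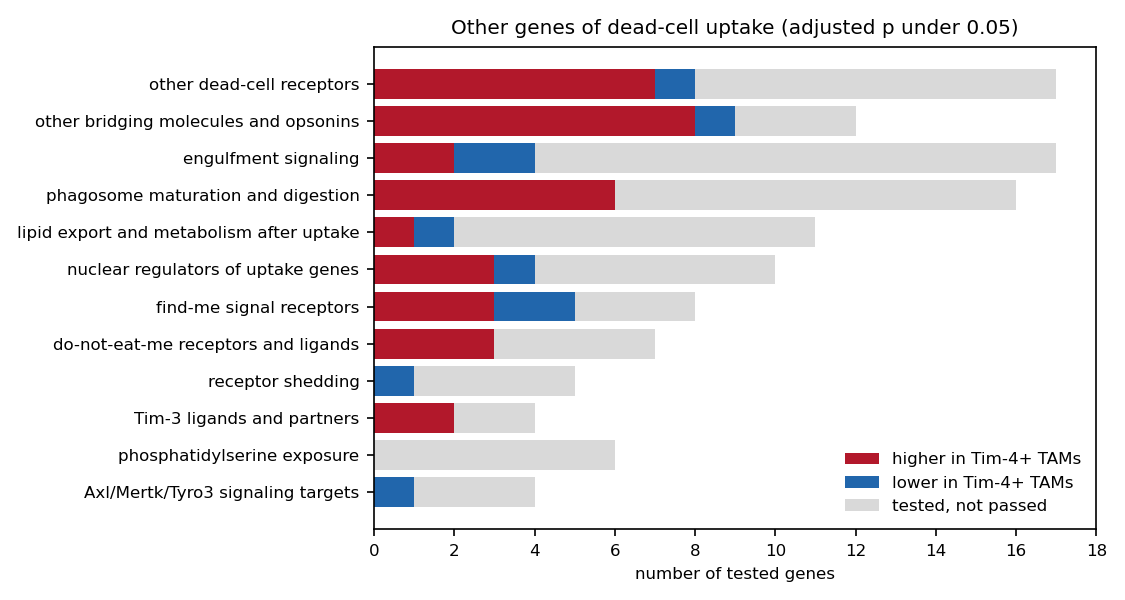
Number of tested genes in each of the 12 lists that were higher in Tim-4+ TAMs (red), lower (blue) or did not pass (grey), at an adjusted p under 0.05. The bridging molecules and opsonins have the most red, with 8 of 12.

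Among the nuclear regulators of uptake genes, 3 of 10 were higher and 1 lower. Nr4a1, an orphan nuclear receptor, had a log2 fold change of 1.31 (SE 0.16), Gata6, which directs the program of resident peritoneal macrophages, 0.71 (SE 0.12), and Ppard, a lipid-sensing receptor, 0.54 (SE 0.14). Maf, a macrophage transcription factor, was at 130 ± 54.0 CPM against 200.2 ± 35.5 CPM, a log2 fold change of -0.70 (SE 0.19). Nr1h3, which encodes the sterol sensor LXR alpha, did not pass, with -0.12 (SE 0.12, adjusted p = 0.534 by edgeR's quasi-likelihood test).

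Receptors for the find-me signals that dying cells release moved in both directions, with 3 of 8 higher and 2 lower. P2ry2, for nucleotides, had a log2 fold change of 1.5 (SE 0.19) and S1pr1, for sphingosine 1-phosphate, of 1.33 (SE 0.23). Fpr2, a formyl peptide receptor, rose by 0.53 (SE 0.14). Cx3cr1, the fractalkine receptor, was at 84.2 ± 80.01 CPM against 268 ± 179 CPM (-1.89, SE 0.19), and S1pr2 was also lower (-0.94, SE 0.17).

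For the do-not-eat-me receptors and ligands, 3 of 7 were higher, and none was lower in edgeR's test, at an unadjusted p under 0.05 or with DESeq2. Calls for this list with total counts per library were not counted. Cd24a, which encodes a ligand of inhibitory Siglecs, was at 231 ± 98.4 CPM against 32.9 ± 14.5 CPM, a log2 fold change of 2.75 (SE 0.29). Pirb and Pilra, inhibitory receptors of myeloid cells, had log2 fold changes of 1.02 (SE 0.18) and 0.65 (SE 0.12). Sirpa, the receptor for CD47, did not pass (0.28, SE 0.17, adjusted p = 0.301 by edgeR's quasi-likelihood test). Of 4 tested ligands and partners of Tim-3, the product of Havcr2, 2 were higher and 2 did not pass. Those higher were Lgals9 (0.51, SE 0.12) and Ceacam1 (0.91, SE 0.14).

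Among the genes of receptor shedding, 1 of 5 was lower, Rhbdf1 (-0.89, SE 0.23), which encodes a cofactor of ADAM17. Adam17, the protease that sheds MerTK, Axl and TIM proteins, did not pass (0.12, SE 0.13, adjusted p = 0.568 by edgeR's quasi-likelihood test). None of 6 genes that expose or retain phosphatidylserine passed edgeR's quasi-likelihood test, with 2 higher and 1 lower both at an unadjusted p under 0.05 and with DESeq2. DESeq2 called 13% of all genes higher and 13.8% lower, and no such share was counted at the unadjusted threshold.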

How the data were processed

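RNA of 4 Tim-4+ and 4 Tim-4- TAM libraries was sequenced as stranded, paired-end, rRNA-depleted libraries in 2 lanes each. The authors deposited raw counts of reads per gene for each of the 16 lanes, without normalization. The submitters' processing notes name FastQC 0.11.3, TopHat2 2.0.13, Cufflinks, Cuffdiff 2.2.1 and the build GRCm38, whereas the study's methods name a human build. The counter and its use of strand are not given in the sources used here. Summary lines that name no gene (18.9% to 32.9% of reads per lane, where listed) were left out. In lane 2 of the Tim-4- library of pair 779, 9.11% of reads were set aside as not unique, against 24.5% in its lane 1.

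Lanes were joined by Ensembl identifier, and 98.4% of the 55604 identifiers were found in GENCODE M21 (GRCm38). Lane 1 of the Tim-4- library of pair 793 lists symbols with Timd4 moved to the top. After that line was put back, the lane was joined by order, and 96.9% of 53618 comparable symbols were the same. All 10 members had the same count by symbol and by order. Between the lanes of a library, chi-square per degree of freedom was 2.29 to 2.42, and lanes were summed, so that n = 4 per subset.

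A gene was tested if 4 or more libraries had 10 or more counts, with edgeR 4.0.16 (R 4.3.3), by the robust quasi-likelihood test with TMM factors, the pair as a block, and p-values adjusted by Benjamini-Hochberg across 16861 genes. The SE is the absolute log2 fold change divided by the square root of F. CPM are TMM-scaled, and log2 ratios per pair use a prior count of 2. Pair numbers are from the labels. Deviations from the subset means correlated within pairs at r = 0.277 to 0.498, and each Tim-4+ library correlated best with its own partner. Per-length levels divide CPM by merged exon length. Likeness to Timd4 was measured on log2(CPM + 0.5). The calculations were tested on simulated data.

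The 10 members and all lists were chosen with earlier results of these data known. All members are named. From each list, up to 3 genes per direction with the largest change among those passing, with a mean of at least 5 CPM, are named, as are Lgals9, C1qa, Cd36, Stab1, Itgav, Itgb3, Itgb5, Sirpa, Adam17, Nr1h3, Maf, Gata6 and Trem2 whatever their result. Some genes that meet this rule are not reported here. Alternatives were DESeq2 size factors, total counts, other count filters, no block, DESeq2 1.42.0 with the block, lane 2 alone, matching the symbol-listed lane by its symbols, each pair left out and, chosen after the data were seen, that lane left out. Without a stated strand setting, reads of overlapping antisense genes cannot be told apart.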

Additional observations from a re-analysis of the deposited data

Results flagged for a closer look

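Among the 20 sets of 4 libraries (10 genes in 2 subsets), 6 held a library far from the other 3. A chance rate of about 1 in 20 holds only for independent, normally distributed values. The sets here share the same 4 pairs, and the CPM were not checked for normality. Whether 6 flagged sets are more than chance gives was therefore not tested. Of these 6, 5 were libraries of pair 783. In Tim-4+ TAMs, pair 783 lay above the other pairs for Havcr2 (53.1 CPM), Gas6 (533 CPM) and Lrp1 (3422 CPM). In Tim-4- TAMs, pair 783 lay above the others for Havcr2 (61.3 CPM) and Cd300lf (77.1 CPM). Pair 779 lay above the others for Mfge8 in Tim-4- TAMs, at 106 CPM.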

How the results depend on the processing

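Over the 13 alternatives, the fitted direction of 8 of the 10 uptake genes stayed the same, and Mfge8 (-0.079) and Lrp1 (-0.063) reversed with total counts per library. That scaling also gave 4 lower calls among the uptake genes and 37 among the other pathway genes, and over all genes 789 higher and 4903 lower calls against 1512 and 1421. Without the replicate block there was 1 higher call among the uptake genes (Timd4) and 0 lower (1 lower at an unadjusted p under 0.05), and among the pathway genes 4 higher and 0 lower (7 lower unadjusted). Over all genes that fit called 147 higher and 85 lower. Its adjusted p was 0.642 for Havcr2, 0.329 for Mertk, 0.804 for Gas6 and 0.0527 for Pros1. DESeq2 with the replicate block called 16 pathway genes lower, and 2194 genes higher and 2328 lower in all. Leaving out each pair in turn gave 0 to 4 higher and 0 to 2 lower calls among the uptake genes, and 1 to 39 higher and 1 to 14 lower among the pathway genes, with 91 to 1608 higher and 67 to 1975 lower over all genes. Lower calls among the uptake genes were 0 without pair 793, 784 or 779 (2, 3 and 3 at an unadjusted p under 0.05). For no fit was the share of all genes counted at that unadjusted threshold. The fits without pair 793, 784 or 779 had fewer libraries. So did the fit without pair 783, which gave 2 lower calls among the uptake genes. The cause of the losses was not tested. Havcr1, Timd2 and Trem2 had too few counts for a test, and Tyro3 was tested on 12 to 196 counts per library.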
